A study of Mus musculus with 6 samples.

Results

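Retinoic acid synthesis and binding is described here through 9 genes of the 31055 in the count matrix: the retinal dehydrogenases Aldh1a1, Aldh1a2 and Aldh1a3, the retinol carrier Rbp4, the retinol uptake receptor Stra6, the cytosolic binding protein Crabp2, the nuclear receptors Rara and Rarb, and the retinoic acid responder Rarres2. The genes were chosen by name for their roles, with earlier results of these data known. Their levels were followed across cell classes defined by marker genes and across 2 genotypes. Single non-myocyte cells of mouse hearts had been sorted for EGFP and sequenced on the 10x Chromium platform, which counts molecules by unique molecular identifiers (UMIs). The study compared 3 libraries of Wt1CreERT2:Rosa26mTmG:DspW/F mice, called Dsp_het here, in which 1 allele of the desmosome gene Dsp is floxed, with 3 libraries of Wt1CreERT2:Rosa26mTmG mice, called control. All 6 libraries carry the Wt1-driven, tamoxifen-dependent Cre and the membrane reporter that turns from Tomato to EGFP after recombination, on a C57BL/6 background at an age of 3 to 6 months. Cre under Wt1 marks any cell that expressed Wt1 when Cre was active, and the labels do not give the time of induction or say whether a library is 1 animal. The p-values below therefore measure the spread between these libraries.

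Retinol travels in blood on Rbp4, enters some cells through Stra6, is oxidised to retinal by alcohol and retinol dehydrogenases, and is then made into retinoic acid by the Aldh1a enzymes in an irreversible step. Retinoic acid reaches the nucleus with help of binding proteins such as Crabp2, binds receptors of the Rar family paired with Rxr receptors, and is broken down by Cyp26 enzymes. In the developing heart the epicardium is a known site of retinoic acid synthesis through Aldh1a2, and the Rarb gene is a textbook direct target because its promoter holds a retinoic acid response element.

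Promoter stretches of the receptor and of the enzyme on which the results turn are shown from RefSeq (GRCm38.p6). Each gives the 250 bases before a start site, read 5′ to 3′ on the gene's own strand. The Rarb stretch lies inside the annotated gene (chromosome 14, 16430839 to 16819156). The UMI counts do not show which start site its transcripts used. Capitals mark a direct repeat of 2 receptor half-sites.
Rarb, chr14:16575477-16575726, minus strand: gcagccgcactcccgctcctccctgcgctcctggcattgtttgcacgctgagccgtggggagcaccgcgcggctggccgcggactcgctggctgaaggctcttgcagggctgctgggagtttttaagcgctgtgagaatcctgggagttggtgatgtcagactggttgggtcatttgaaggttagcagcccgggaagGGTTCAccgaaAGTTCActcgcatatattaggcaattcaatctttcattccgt
Aldh1a2, chr9:71215539-71215788, plus strand: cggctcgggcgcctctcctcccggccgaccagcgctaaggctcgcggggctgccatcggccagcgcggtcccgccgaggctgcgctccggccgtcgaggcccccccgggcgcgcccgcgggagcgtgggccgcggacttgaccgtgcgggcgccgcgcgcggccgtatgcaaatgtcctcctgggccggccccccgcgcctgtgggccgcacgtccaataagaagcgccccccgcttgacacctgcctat
Both strands of each 300-base promoter window were searched for a direct repeat of 2 half-sites, of which the usual form is AGGTCA and the accepted variants were GGGTCA with another first base, AGTTCA with another middle base and the double variant GGTTCA, each with 1, 2 or 5 bases between them. The Rarb window held a repeat with 5 bases between the half-sites, from 53 to 37 bases before the start site (chr14:16575513-16575529), a spacing found in 0.0974% of 32851 mouse promoter windows. Spacings of 1 and 2 bases were found in 0.222% and 0.268% of those windows. The Rarb element was known beforehand and its 2 half-sites are among the accepted forms, so the match there was no blind find. No match lay in the windows of Aldh1a1, Aldh1a2, Rbp4, Stra6 or Rara, which says only that these letters are not there. Aldh1a3, Crabp2 and Rarres2 were not searched. A letter match is not evidence of binding.

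The matrix held 18283 barcodes. Of 13183 distinct barcode sequences 1689 occurred in several libraries, a sharing whose cause was not tested, so each barcode was kept only in the library that held most of its UMIs, which left 12643 cells after filtering. With every copy counted, 61.8% of the epicardial-like cells were such copies, so results that rest on that class are also given with copies where the call changed. They numbered 2966, 1773 and 1057 in Dsp_het libraries and 2441, 1583 and 2823 in control libraries, with 8773959 to 13375873 UMIs in Dsp_het and 6878496 to 15252012 UMIs in control. By markers, 598 cells were epicardial-like, 1215 fibroblast-like, 8346 endothelial-like, 207 pericyte-like and 218 macrophage-like. Another 1490 cells led by cardiomyocyte genes and 504 shallow cells stayed unnamed. In the 1490 cells the endothelial genes Pecam1, Kdr and Cdh5 averaged 558, 1369 and 1163 CPM. Endothelial-like cells averaged 741, 1209 and 1139 CPM of these genes. The 1490 cells made up 3.24, 15.2 and 5.96% of the cells in Dsp_het libraries and 4.59, 17.5 and 23.8% in control libraries. Endothelial-like values below leave them out. The labels call the sorted cells epicardial-derived, and most of them held endothelial markers. GFP, the reporter of the sort, was highest in endothelial-like cells among the named classes, at 4091, 3740 and 4228 CPM in Dsp_het libraries and at 3173, 3295 and 3167 CPM in control libraries. The floxed gene itself was near the limit of detection, with 16, 11 and 31 Dsp UMIs in Dsp_het libraries and 13, 15 and 32 in control libraries, and a 3′ tag does not show whether the allele was recombined. In epicardial-like cells Dsp was at 7.26, 7.25 and 9.50 CPM in Dsp_het and at 11.97, 20.9 and 17.5 CPM in control, from 35 and 29 UMIs (exact permutation test, two-sided, p = 0.1, the smallest that 3 against 3 libraries allow). CPM is a gene's UMIs summed over the cells of a class in 1 library and scaled to a common total of UMIs, and intervals and SDs from few UMIs mainly carry counting error.

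The 9 members fell into different classes of cells. Aldh1a1 and Rarres2 were highest in epicardial-like and fibroblast-like cells, Aldh1a2 in epicardial-like cells and Rbp4 in fibroblast-like cells. Most Aldh1a3 UMIs lay in endothelial-like and fibroblast-like cells, and most Stra6 UMIs in endothelial-like and epicardial-like cells. By mean level Aldh1a3 was highest in fibroblast-like and Stra6 in epicardial-like cells, with ranges that overlapped those of endothelial-like cells. Rara was present everywhere. Crabp2 was close to undetected. The levels by class are a description and were not tested, since classes were made from the same cells, although the members and 53 other retinoid genes were kept out of the genes used for clustering.

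**Figure D1:**
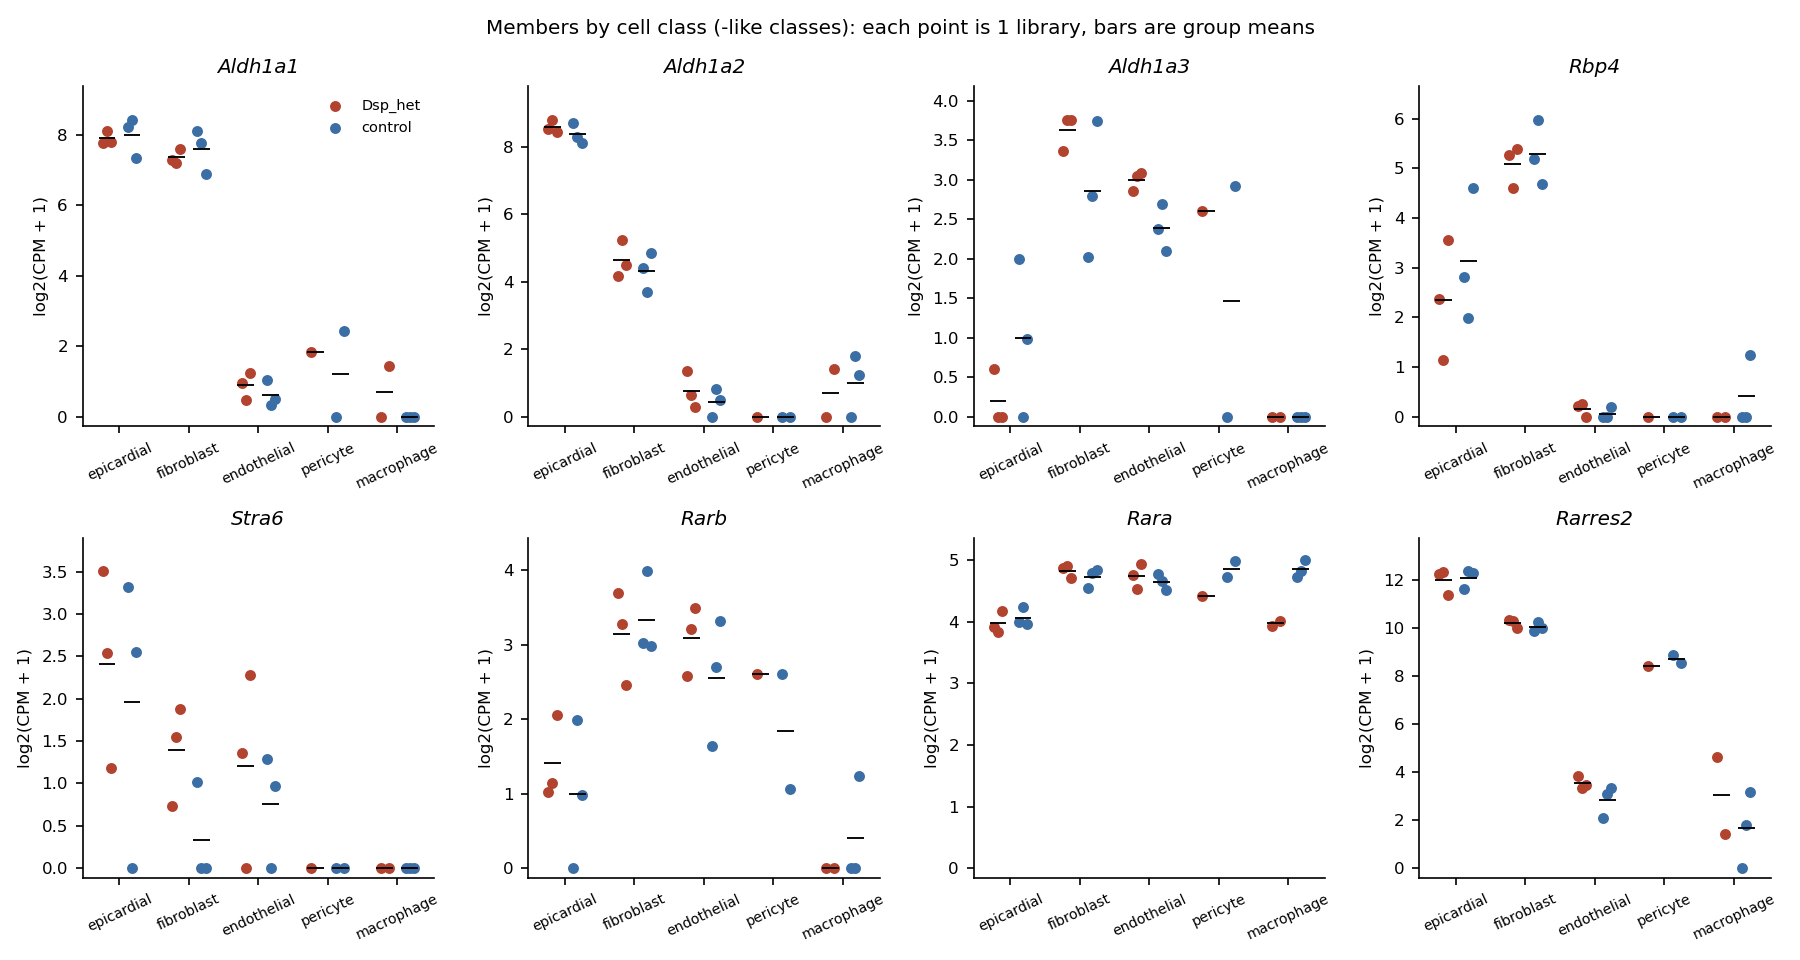
Level of 8 members (log2 of CPM plus 1, y axis) in 5 cell classes (x axis), with 1 point per library holding at least 20 cells of the class, Dsp_het left of control, and a bar at each group's mean. Aldh1a2 is highest in epicardial-like cells (360.9 CPM on average) and Rarres2 in epicardial-like and fibroblast-like cells, while Rara lies between 13.3 and 31.1 CPM in every library of these classes.

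Aldh1a2 (chromosome 9, 71215789 to 71296243, plus strand), the main enzyme of retinoic acid synthesis in the embryo, was the most class-restricted member. In epicardial-like cells it was at 366, 445 and 348 CPM in Dsp_het libraries and at 419, 310 and 277 CPM in control libraries. Fibroblast-like cells held 16.8, 36.8 and 21.5 CPM in Dsp_het and 20.3, 11.9 and 27.7 CPM in control. The lowest epicardial-like library was therefore above the highest fibroblast-like one, at 277 against 36.8 CPM. Endothelial-like cells averaged 0.593 ± 0.546 CPM (SD, n = 6 libraries), from 20 UMIs in 8346 cells. Epicardial-like cells were 598 of 12643 cells but held 2154 of 2389 Aldh1a2 UMIs, or 90.2% (95% exact binomial interval 88.9 to 91.3%). That share was 88.9, 90.0 and 95.1% in Dsp_het libraries and 87.0, 89.7 and 86.4% in control libraries.

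At the level of single cells, 477 of 598 epicardial-like cells (79.8%, exact interval 76.3 to 82.9%) held an Aldh1a2 UMI, against 124 of 1215 fibroblast-like cells (10.2%) and 20 of 8346 endothelial-like cells (0.240%). Median depths were 9554, 7582 and 3682 UMIs per cell in these classes. With every cell thinned to 1000 UMIs and shallower cells left out, the shares were 28.9% of epicardial-like, 2.09% of fibroblast-like and 0.0753% of endothelial-like cells. RNA free in the droplets gives all cells some UMIs of abundant genes, so Aldh1a2 was set against Upk3b, a surface gene of the mesothelium. There were 0.176 Aldh1a2 UMIs per Upk3b UMI in epicardial-like cells, 0.220 in endothelial-like cells and 8.58 in fibroblast-like cells. The endothelial-like ratio came from 20 Aldh1a2 and 91 Upk3b UMIs, and the fibroblast-like one from 206 and 24. In the same order of classes the ratios were 0.113, 0.286 and 68.7 for Aldh1a1 and 2.11, 3.24 and 479 for Rarres2. The part of free RNA in these values was not tested. Of the fibroblast-like cells with an Aldh1a2 UMI, 1 of 124 also held Upk3b (0.8065%), beside 1.375% of those without. With Upk3b in only 16 of the 1215 cells, these shares cannot tell the source of the Aldh1a2 UMIs.

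Aldh1a1 (chromosome 19, 20492715 to 20643465, plus strand), another retinal dehydrogenase, was shared by epicardial-like and fibroblast-like cells. In epicardial-like cells it was at 217, 273 and 222 CPM in Dsp_het libraries and at 296, 343 and 160 CPM in control libraries. In fibroblast-like cells it was at 155, 146 and 191 CPM in Dsp_het and at 274, 217 and 116 CPM in control. The ranges of the 2 classes overlapped, at 251.9 ± 65.1 and 183 ± 56.6 CPM (SD, n = 6 each), and both were apart from endothelial-like cells at 0.734 ± 0.444 CPM. Fibroblast-like cells gave 1649 of 3071 Aldh1a1 UMIs (53.7%) and epicardial-like cells 1375 (44.8%). An Aldh1a1 UMI was found in 437 of 598 epicardial-like cells (73.1%), in 783 of 1215 fibroblast-like cells (64.4%) and in 23 of 8346 endothelial-like cells (0.276%), and after thinning in 20.1, 14.8 and 0.0753% of them. Both enzymes were seen together in 370 of the 437 Aldh1a1-positive epicardial-like cells (84.7%), and in 83 of the 783 Aldh1a1-positive fibroblast-like cells (10.6%). Of the Aldh1a1-negative cells in these classes, 66.5 and 9.49% held Aldh1a2. These shares were not adjusted for depth.

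Aldh1a3 (chromosome 7, 66390890 to 66427517, minus strand), the third enzyme of the family, followed another pattern. Its 300 UMIs lay mostly in endothelial-like cells (188, or 62.7%) and fibroblast-like cells (94, or 31.3%), and only 3 in epicardial-like cells. Endothelial-like cells gave 47.8 to 74.5% of all UMIs of a library. By mean level fibroblast-like cells were higher, at 9.30 ± 4.03 CPM against 5.66 ± 1.67 CPM in endothelial-like cells (SD, n = 6 each). The ranges of these 2 classes overlapped. Within the endothelial-like class, 91 of the 188 UMIs came from the 591 cells of the cluster led by Vwf, Cytl1 and Plvap, of which Vwf encodes von Willebrand factor, and 67 from the 1328 cells of the cluster led by Rasa4 and Slfn2. The cluster led by Vwf held 25.1, 32.6 and 21.3 CPM in Dsp_het libraries and 20.8, 15.3 and 13.5 CPM in control libraries. In the cluster led by Rasa4 it was 9.98, 14.3 and 11.496 CPM in Dsp_het and 5.97, 17.3 and 2.93 CPM in control. In the other 6 endothelial-like clusters Aldh1a3 was between 0 and 2.1 CPM over all libraries. Of 153 endothelial-like cells with an Aldh1a3 UMI, 91 (59.5%) also held Vwf, against 12.2% of the other endothelial-like cells. These shares were not adjusted for depth. The cluster led by Vwf had a median of 6507 UMIs per cell, against 3682 in the whole class. Among fibroblast-like cells, a cluster of 65 cells led by Ccl11 and Igfbp3 held 34 of the 94 UMIs, at 62.7 CPM against 6.50 CPM in the cluster led by Gsn and Lum. Of those 65 cells 54 came from Dsp_het library 1, so this group is close to a single library.

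**Figure D2:**
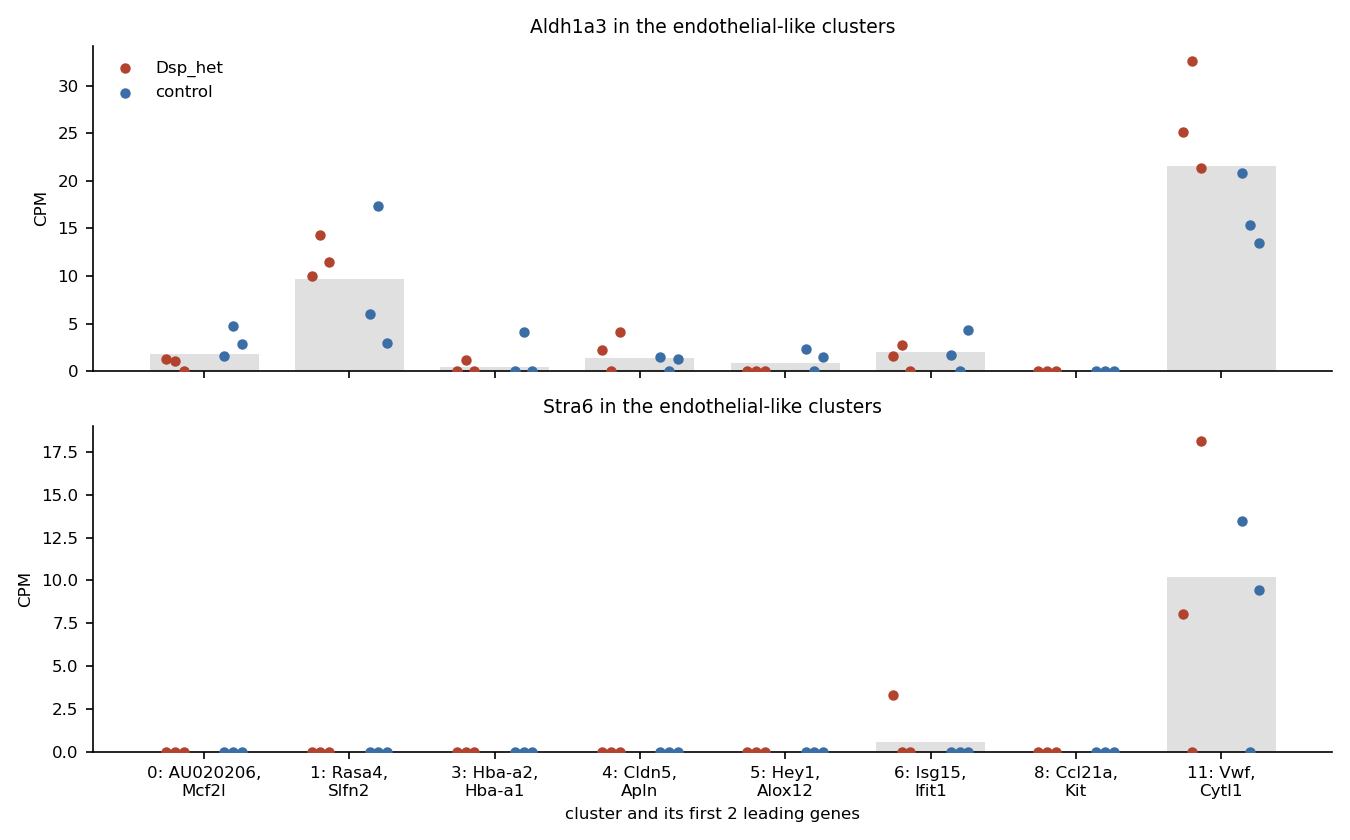
Level of Aldh1a3 (top) and Stra6 (bottom) in CPM in the 8 endothelial-like clusters, named by number and leading genes. Grey bars give the CPM over all libraries and points the single libraries, Dsp_het left of control. Both genes peak in the cluster led by Vwf and Cytl1, at 21.6 and 10.2 CPM, and Stra6 has no UMI there in Dsp_het library 2 and control library 2.

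Stra6 (chromosome 9, 58063788 to 58153996, plus strand), the membrane receptor that takes up retinol from Rbp4, was rare, with 89 UMIs. Epicardial-like cells gave 34 of them and endothelial-like cells 45, of which 43 lay in the cluster led by Vwf. That cluster held 8.03, 0 and 18.1 CPM in Dsp_het libraries and 13.5, 0 and 9.46 CPM in control libraries. With the finer clustering, cells led by Cytl1, Plvap and Npr3 reached 17.0 CPM of Stra6 and held no Aldh1a3 UMI, and the cells next to them, led by Serpina1b and Vwf, held 6.2 CPM of Stra6 and 27.0 CPM of Aldh1a3. Of 28 endothelial-like cells with a Stra6 UMI, 26 also held Vwf, again without adjustment for depth. In epicardial-like cells Stra6 was at 10.4, 4.84 and 1.27 CPM in Dsp_het and at 8.97, 0 and 4.85 CPM in control. The mean was 5.05 ± 4.09 CPM there, against 1.30 ± 1.42 CPM in the larger endothelial-like class (SD, n = 6 each), and the ranges overlapped.

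Rbp4 (chromosome 19, 38116629 to 38125281, minus strand), the retinol carrier best known as a liver protein, was a fibroblast-like transcript. Fibroblast-like cells gave 352 of 426 UMIs (82.6%), and were at 37.4, 23.2 and 41.1 CPM in Dsp_het libraries and at 35.6, 62.3 and 24.9 CPM in control libraries. Epicardial-like cells averaged 8.06 ± 8.14 CPM (SD, n = 6), and their range overlapped that of fibroblast-like cells only at 23.3 CPM in control library 3. Endothelial-like cells had 3 UMIs in 8346 cells. A single barcode of control library 1, in a shallow unnamed cluster led by haemoglobin genes, Car3 and Cfd, carried 17 UMIs of Rbp4 and gave all that cluster held. Crabp2 (chromosome 3, 87948666 to 87953376, plus strand), which hands retinoic acid to its receptors, had 2 UMIs in 12643 cells, 1 in a fibroblast-like and 1 in an endothelial-like cell. No Crabp2 UMI was found in 598 epicardial-like cells, where the exact binomial interval reaches 0.615% of cells with a UMI, which sets no limit on cells that express the gene.

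The fibroblast-like class was not uniform for these genes. The finer clustering divided it mainly into 711 cells led by Ptn, Inmt and Dpep1 and 436 cells led by Lum, Gsn and Mfap5. Rbp4 was at 50.02, 34.4 and 81.8 CPM in the first and 9.18, 13.5 and 24.1 CPM in the second in Dsp_het libraries, and at 45.6, 65.6 and 40.4 CPM against 25.5, 26.8 and 15.1 CPM in control libraries. It was thus higher in the cells led by Ptn in 6 of 6 libraries. Rarb had the same direction in 6 of 6 libraries, at 13.4 against 3.6 CPM over all libraries, from 68 and 15 UMIs. Aldh1a2 had the opposite direction in 6 of 6 libraries, at 15.9 CPM in the cells led by Ptn and 30.3 CPM in the cells led by Lum. Aldh1a1 went either way, with the cells led by Ptn higher in 3 of 6 libraries. These clusters were drawn from the same cells, and the differences were not tested.

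**Figure D3:**
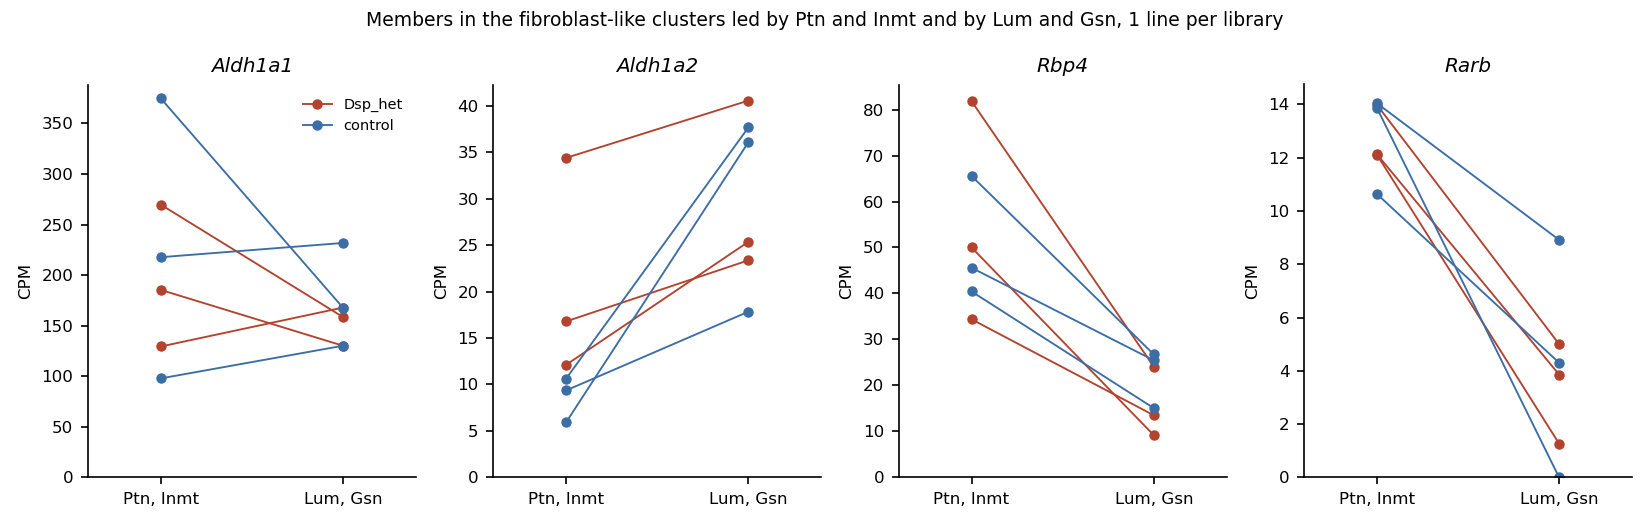
Level in CPM of Aldh1a1, Aldh1a2, Rbp4 and Rarb in the fibroblast-like cells led by Ptn and Inmt (left in each panel) and in those led by Lum and Gsn (right), with 1 line per library. Rbp4 and Rarb are lower and Aldh1a2 is higher in the cells led by Lum in each of the 6 libraries, while the lines of Aldh1a1 cross.

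Rara (chromosome 11, 98927818 to 98974942, plus strand), a widely expressed receptor of retinoic acid, varied least among the detected members. It averaged 26.5 ± 2.44 CPM in fibroblast-like, 24.99 ± 2.87 CPM in endothelial-like and 15.3 ± 1.81 CPM in epicardial-like cells (SD, n = 6 each). The epicardial-like libraries, at 14.0, 13.3 and 17.1 CPM in Dsp_het and 14.96, 17.9 and 14.5 CPM in control, lay below every fibroblast-like library, of which the lowest was at 22.4 CPM. Rarb (chromosome 14, 16430839 to 16819156, minus strand) had 374 UMIs, at 9.002 ± 3.78 CPM in fibroblast-like and 6.66 ± 3.00 CPM in endothelial-like cells, with overlapping ranges. In epicardial-like cells, where Aldh1a1 and Aldh1a2 had their highest means, it was at 1.56 ± 1.25 CPM from 10 UMIs. Only 9 of 598 epicardial-like cells (1.51%, exact interval 0.690 to 2.84%) held a Rarb UMI, against 85 of 1215 fibroblast-like cells (6.996%), although epicardial-like cells were the deeper ones. After thinning to 1000 UMIs the shares were 0.170 and 0.918%, from 1 of 588 and 11 of 1198 cells. Their exact intervals, 0.00431 to 0.944% and 0.459 to 1.64%, overlapped.

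Rarres2 (chromosome 6, 48569696 to 48572789, minus strand) encodes chemerin, a secreted protein first found as a gene induced by retinoids in skin. Its 38261 UMIs made it the best measured member. It was at 4853, 5100 and 2641 CPM in Dsp_het and at 3162, 5280 and 4973 CPM in control epicardial-like cells. Fibroblast-like cells held 1296, 1245 and 1021 CPM in Dsp_het and 927, 1224 and 1024 CPM in control. The order from epicardial-like (4335 ± 1131 CPM) to fibroblast-like (1123 ± 151 CPM, SD, n = 6 each) and then pericyte-like cells (393 ± 63.3 CPM, n = 3 libraries with at least 20 such cells) had no overlap between neighbours. The pericyte-like class also held endothelial markers, whose sum was 18122 to 20117 CPM in those 3 libraries beside 8143 to 10302 CPM for the pericyte markers. Endothelial-like cells averaged 8.67 ± 3.22 CPM. A Rarres2 UMI was present in 98.5% of epicardial-like, 97.5% of fibroblast-like, 74.9% of pericyte-like and 3.14% of endothelial-like cells, and after thinning to 1000 UMIs in 88.6, 65.8, 33.9 and 1.08% of them.

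Genes with the most similar pattern were looked up for members above 20 CPM in some class, by Pearson correlation of log2(CPM + 10) over 26 class-by-library sums of 5 classes and among 8483 genes. These correlations mostly carry the contrast between classes and are descriptions. Aldh1a2 was closest to Slc4a4 (r = 0.988), a bicarbonate transporter, then to Fam180a and Xpnpep2. Aldh1a1 was closest to Cdon (r = 0.988), then to Mmp23 and Ces1d. Rarres2 was closest to the complement protease C1s1 (r = 0.976), then to Vasn and Casc4, and Rbp4 to 6030419C18Rik (r = 0.955), Mme and Thbs3. For Rara the highest correlation was 0.753, with Cnrip1.

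The comparison of the Dsp_het and control genotypes was first made on UMIs summed over all cells of a library. In such sums, more cells of a type and more RNA per cell cannot be told apart. Aldh1a2 was higher in Dsp_het, at 59.4, 46.5 and 65.8 CPM, than in control, at 15.8, 16.9 and 21.7 CPM. The groups did not overlap, and the log2 fold change was 1.63 (SE 0.19). It had an unadjusted p of 4.39e-05 with edgeR's quasi-likelihood test, but an adjusted p of 0.0918 after Benjamini-Hochberg adjustment over 12969 genes, short of the 0.05 threshold. No gene passed in this comparison (0% of genes tested), with 1643 genes at an unadjusted p under 0.05. The call for Aldh1a2 was made under 4 of 14 other settings. These were all barcodes with copies included (adjusted p = 0.0446; 0.038% of genes called), no filter on low counts (0.0197; 0.364% of genes called), DESeq2 (1.25e-09; 2.95% of genes called) and Dsp_het library 2 left out (0.0312; 1.27% of genes called). Over the 14 settings the edgeR and DESeq2 adjusted p ranged from 1.25e-09 to 0.657, and the log2 fold change from 1.20 to 1.84. The 0.657 and 1.20 are those of sums without the epicardial-like cells, which is a different set of cells. With 1 library left out the log2 fold change was 1.51 to 1.84 and the edgeR adjusted p 0.0312 to 0.467.

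The other enzymes and Rarres2 had the same direction over all cells and did not pass. Aldh1a1 was at 84.8, 43.1 and 65.6 CPM in Dsp_het and at 37.0, 38.4 and 22.4 CPM in control (log2 fold change 1.00, SE 0.28, edgeR adjusted p = 0.228), and DESeq2 gave an adjusted p of 0.0158, in a range of 0.0158 to 0.743 over the 14 other settings. Aldh1a3 was at 6.21, 5.91 and 5.70 CPM in Dsp_het and at 3.53, 3.78 and 3.48 CPM in control (0.72, SE 0.20, adjusted p = 0.223), with no overlap and little spread. Rarres2 was at 1148, 634 and 628 CPM in Dsp_het and at 199, 396 and 464 CPM in control (1.17, SE 0.38, adjusted p = 0.282). Rarb was at 6.65, 7.61 and 6.84 CPM in Dsp_het and at 2.26, 5.67 and 6.29 CPM in control (0.54, SE 0.38, adjusted p = 0.627). Stra6 (1.19, SE 0.81, adjusted p = 0.615) and Rbp4 (0.62, SE 0.49, adjusted p = 0.670) varied between libraries of the same group, and Rbp4 was at -0.05 without Dsp_het library 1. Rara stayed level, at 24.4, 21.1 and 24.6 CPM in Dsp_het and 25.5, 22.5 and 21.7 CPM in control (0.00, SE 0.11, adjusted p = 0.992). Of the 8 members that could be fitted, 8 had a positive log2 fold change with a median of 0.86, beside 47.7% positive and a median of -0.01 over all genes. That of Rara was near 0 and turned to -0.010 without the filter on low counts. Within epicardial-like cells 1 of 4 was positive, with a median of -0.04. The members were chosen with earlier results of these data known, and several were highest in the same classes. These counts are therefore descriptions and were not tested.

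**Figure D4:**
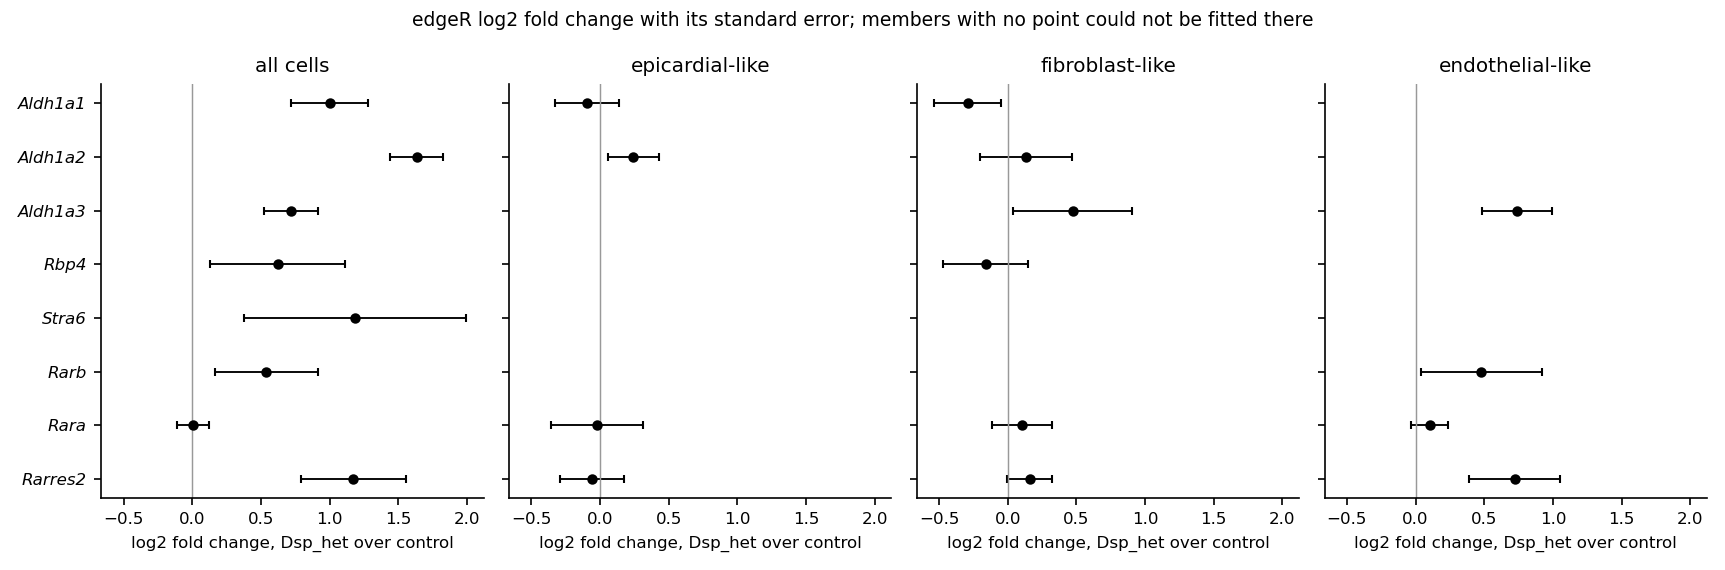
Log2 fold change of Dsp_het over control with its standard error (x axis, edgeR) for 8 members (rows) in sums over all cells and within 3 classes (panels). Aldh1a2 is at 1.63 over all cells and at 0.24 in epicardial-like cells, and no member passed the adjusted threshold in any panel.

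The mix of cells moved with these sums. Epicardial-like cells made up 8.09, 4.40 and 8.80% of the cells in Dsp_het libraries and 1.97, 2.97 and 3.26% in control libraries. They gave 14.4, 9.40 and 18.002% of the UMIs in Dsp_het and 3.28, 4.88 and 6.76% in control. The groups did not overlap in either share (log2 ratios 1.38 and 1.49, exact permutation test, two-sided, p = 0.1 for each, the smallest possible). Fibroblast-like cells were 21.1, 6.66 and 8.61% of the cells in Dsp_het and 4.79, 6.06 and 5.92% in control. Summed over 12 fixed epicardial markers, all of them detected, all-cell levels were 1019 to 1665 CPM in Dsp_het and 335 to 589 CPM in control. With the epicardial-like cells left out of the sums, 7.69, 5.14 and 3.89 CPM of Aldh1a2 remained in Dsp_het and 2.13, 1.83 and 3.16 CPM in control (log2 fold change 1.20, edgeR adjusted p = 0.657). The part of the cell mix in the all-cell values was not tested beyond these within-class and left-out values.

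**Figure D5:**
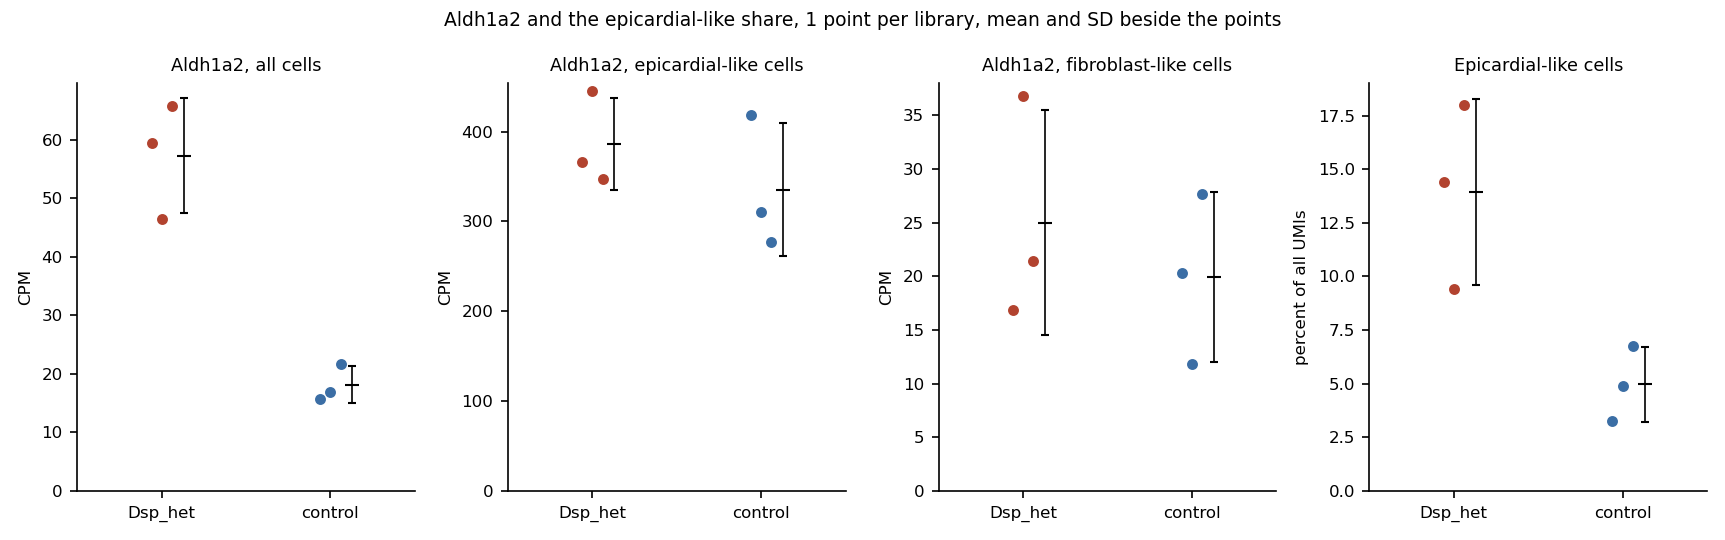
Aldh1a2 in CPM over all cells, in epicardial-like cells and in fibroblast-like cells, and the share of all UMIs that came from epicardial-like cells, with 1 point per library, Dsp_het left of control, and mean and SD beside the points (n = 3 each). The groups are apart over all cells (46.5 to 65.8 against 15.8 to 21.7 CPM) and in the share of UMIs, and overlap within both classes.

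Within epicardial-like cells the groups overlapped for the 4 members that could be fitted. Aldh1a2 averaged 386 ± 51.6 CPM in Dsp_het and 335 ± 74.0 CPM in control (SD, n = 3 each), a log2 fold change of 0.24 (SE 0.19, edgeR adjusted p = 0.9998). Aldh1a1 had a log2 fold change of -0.09 (SE 0.23), Rarres2 of -0.06 (SE 0.23) and Rara of -0.02 (SE 0.34), all with that same adjusted p. None of 8292 genes was called in this class (0%) by edgeR, with 259 at an unadjusted p under 0.05, and DESeq2 called 0 as well. In fibroblast-like cells 6 members could be fitted and none was called, where 0.0118% of 8457 genes were. Aldh1a3 was at 9.30, 12.6 and 12.5 CPM in Dsp_het and at 3.05, 5.94 and 12.4 CPM in control (0.47, SE 0.43), and Aldh1a1 had a log2 fold change of -0.29 (SE 0.24). The other 4, Aldh1a2, Rbp4, Rara and Rarres2, lay between -0.16 and 0.16, and the adjusted p was 0.9999 for each of the 6. These p-values do not show that the genotypes were alike.

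In endothelial-like cells 4 members could be fitted and none was called, where 0.0178% of 11212 genes were. Aldh1a3 was higher in each Dsp_het library (6.24, 7.29 and 7.48 CPM) than in each control library (4.22, 5.46 and 3.29 CPM), with a log2 fold change of 0.74 (SE 0.26), an unadjusted p of 0.0134 and an edgeR adjusted p of 0.984. The cluster led by Vwf, which gave 91 of the 188 Aldh1a3 UMIs, made up 9.18, 5.51 and 14.9% of the endothelial-like cells in Dsp_het libraries and 6.11, 3.54 and 5.67% in control libraries, with overlapping ranges, and the part of this mix in the class value was not tested. Within that cluster each Dsp_het library was above each control library, at 21.3 to 32.6 CPM in Dsp_het and 13.5 to 20.8 CPM in control. Those levels rest on the 91 UMIs, with 35 cells of the cluster in control library 2, and were not tested. In the finer clustering, cells led by Cytl1 and Plvap held no Aldh1a3 UMI while those led by Serpina1b and Vwf did. The part of their mix was not tested either. Rarres2 was at 13.1, 9.01 and 9.97 CPM in Dsp_het and at 3.29, 7.55 and 9.06 CPM in control (0.72, SE 0.33, adjusted p = 0.998). In the same endothelial-like cells Upk3b, which these cells should lack, was at 3.90, 4.60 and 5.44 CPM in Dsp_het and at 0.395, 1.04 and 1.51 CPM in control, and its part in the Rarres2 value was not tested. Rarb (0.48, SE 0.44) and Rara (0.10, SE 0.13) had an adjusted p of 0.998 as well. Whether the genotype effect differed between classes was tested in 1 model with the library as a block, for members fitted in both classes. Rarres2 gave the lowest unadjusted p, at 0.0132 for epicardial-like minus endothelial-like cells (difference -0.77, SE 0.28, adjusted p = 0.937; 0.00894% of 11190 genes called). It passed under 1 of 14 other settings, without a filter on low counts (-0.76, adjusted p = 0.0464; 0.366% of genes called), in a range of adjusted p from 0.0464 to 1. Epicardial-like minus fibroblast-like cells differed by 0.23 (SE 0.38) for Aldh1a2 and by 0.18 (SE 0.20) for Aldh1a1. In that contrast and in fibroblast-like minus endothelial-like cells 0% of genes were called.

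Members too low for the fit were compared by exact permutation over libraries, in 14 combinations of gene and class. The lowest p was 0.2 (two-sided, adjusted p = 1), for Stra6 in fibroblast-like cells, with 8 UMIs in Dsp_het and 1 in control. With 3 libraries a group this exact permutation test cannot go below p = 0.1, so none of the 14 could have passed, and the comparison says nothing on whether these members differed.

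The wider pathway was described through 53 further retinoid genes in 9 roles. Over all cells 32 of them could be fitted, of which 22 had a positive and 10 a negative log2 fold change with a median of 0.16, and none passed, against 0% of all genes tested. Of the 32, 6 had an unadjusted edgeR p under 0.05, beside 1643 of all 12969 genes tested. Among all genes 47.7% had a positive log2 fold change. No further retinoid gene passed in epicardial-like (24 fitted), fibroblast-like (21) or endothelial-like cells (30). The gene with the highest level in each role is given here. Among uptake and carrier genes it was Rbp7, a cellular retinol-binding protein of endothelium, at 862, 944 and 1184 CPM in Dsp_het and 1317, 1587 and 1483 CPM in control over all cells (log2 fold change -0.57, SE 0.15, edgeR adjusted p = 0.204). Within endothelial-like cells Rbp7 overlapped between the groups, at 1559, 1141 and 1833 CPM in Dsp_het and 1560, 1930 and 1665 CPM in control (-0.17, SE 0.16).

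Among the retinol and retinal oxidoreductases it was Dhrs3, which turns retinal back to retinol, at 241 ± 41.8 CPM in Dsp_het and 197 ± 39.9 CPM in control endothelial-like cells (SD, n = 3 each), and at 28.5 ± 3.86 and 28.3 ± 2.40 CPM in epicardial-like cells of the same groups. Among the binding proteins for retinoic acid it was Fabp5, at 1242, 1488 and 1227 CPM in Dsp_het and 2045, 1553 and 1728 CPM in control over all cells (-0.44, SE 0.14, adjusted p = 0.282). Cyp26b1, which breaks retinoic acid down, was the gene of its role and was endothelial, at 100.3 ± 74.6 CPM in Dsp_het and 66.6 ± 62.8 CPM in control endothelial-like cells, against 9 UMIs in all epicardial-like cells. The class with the highest Aldh1a2 thus held almost no Cyp26b1 UMIs, and the class with the most Cyp26b1 almost no Aldh1a2 UMIs. Among further nuclear receptors it was Rarg (log2 fold change -0.01, SE 0.18), among coregulators Ncor1 (-0.09, SE 0.10), among genes induced by retinoic acid Tgm2 (0.53, SE 0.22, adjusted p = 0.376) and among chemerin receptors Ccrl2 (0.08, SE 0.12). Rarg had 3874 UMIs over all cells, more than the 1475 of the member Rara. Aldh1a7 led the role of further retinal dehydrogenases with 6 UMIs in all.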

How the data were processed

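Droplet libraries of 6 samples were analysed from the UMI counts per gene and cell barcode that the authors deposited; the submitters' processing notes name the GRCm38 build and Seurat, while no aligner is named in these sources. The members, gene lists and tests were chosen with earlier results of these data known. Barcodes with at least 500 UMIs, 200 genes and at most 20% mitochondrial UMIs were kept, each only in the library holding most of its UMIs and at least 0.5 of them. Scrublet called 35 doublets (0.214%), too few to be relied on. Cells were clustered with scanpy 1.11.5 (2000 variable genes, 30 components, 15 neighbours, resolution 1.0, with 2.0 as the finer clustering), leaving the members and other retinoid genes out. Clusters were named from fixed markers, at least 3 of them at 0.25 or more of their highest cluster level, and the demand that a share of 0.25 of the cluster's own cells hold the marker was added after the clusters were seen. Genome positions of genes are those of the GRCm38 annotation.

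Counts were summed per library and class (at least 20 cells) and tested with edgeR 4.0.16 (TMM, quasi-likelihood, minimum count 10, Benjamini-Hochberg threshold 0.05) in R 4.3.3, with DESeq2 1.42.0 as an alternative. The scripts were tested on simulated data. Replicate numbers of the 2 genotypes were checked and did not pair the libraries. All members are named, and of the pathway genes, none of which passed, the one with the highest mean level over all cells in each role. CPM were computed from the deposited counts. Intervals are exact binomial at 95% and cover counting error only.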

Additional observations from a re-analysis of the deposited data

How the results depend on the processing

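With copies included and with members allowed in clustering, 8 of 9 members had the same highest class, which for Crabp2 rests on 1 UMI, and Rara changed to pericyte-like cells in both. Without a filter on low counts 73 genes were called over all cells, 34 in epicardial-like, 67 in fibroblast-like and 152 in endothelial-like cells, and 71, 29 and 47 in the interactions of epicardial-like minus endothelial-like, epicardial-like minus fibroblast-like and fibroblast-like minus endothelial-like cells. DESeq2 called 382 genes over all cells and 10 in endothelial-like cells. With copies included 5 were called over all cells, 0 in endothelial-like cells and 0 in the first interaction, which had 3 with the highest doublet scores left out. Resolutions of 0.5 and 2.0 gave 0 in endothelial-like cells. With 1 library left out the calls ranged from 0 to 170 over all cells, 0 to 5 in epicardial-like, 0 to 1 in fibroblast-like and 0 to 7 in endothelial-like cells, and 0 to 2, 0 to 1 and 0 in the 3 interactions. The causes were not tested. Replicate numbers did not pair the libraries (correlations of same-numbered libraries 0.021, -0.079 and -0.063). With the replicate block Aldh1a2 over all cells was at 1.65, and 3 genes were called in fibroblast-like and 9 in endothelial-like cells.

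Members that changed sign passed in neither direction. With 1 library left out, log2 fold changes over all cells ranged from -0.052 to 1.01 for Rbp4 and -0.053 to 0.072 for Rara. In epicardial-like cells they ranged from -0.39 to 0.12 for Aldh1a1, -0.14 to 0.040 for Rara and -0.25 to 0.19 for Rarres2, and in fibroblast-like cells from -0.17 to 0.48 for Aldh1a2, -0.46 to 0.23 for Rbp4 and -0.0041 to 0.18 for Rara. The interaction of epicardial-like minus fibroblast-like cells ranged from -0.029 to 0.27 for Aldh1a1 and -0.34 to 0.40 for Aldh1a2, and that of fibroblast-like minus endothelial-like cells from -0.60 to 0.79 for Aldh1a3 and -0.14 to 0.14 for Rara. Rara was at -0.010 over all cells, 0.0083 in epicardial-like cells and 0.031 in the last interaction without a filter, and in epicardial-like cells at 0.0019 with the replicate block and 0.038 at resolution 0.5. The epicardial-like share of cells stayed higher in Dsp_het with 1 library left out, with copies included (log2 ratio 0.64), with a stricter cell filter and at both other resolutions.

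The members with the fewest UMIs were Crabp2 (2), Stra6 (89) and Aldh1a3 (300).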

Other observations

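Cyp26b1 differed more between libraries of a group than between groups. In endothelial-like cells it was at 45.3, 185 and 70.5 CPM in Dsp_het and at 17.4, 45.0 and 137 CPM in control. The highest library of each group, Dsp_het library 2 and control library 3, was also the library of its group with Xist above 100 CPM. With 1 such library per group this was not tested.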
